A study of Mus musculus with 2 samples.

Results

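The Mir29 family of miRNA genes, Mir29a, Mir29b-1, Mir29b-2 and Mir29c, was read out of microRNA-seq tables of neural tube, the embryonic forerunner of brain and spinal cord. Its 4 members were taken by gene symbol from the 1973 miRNA genes listed in the tables, not by a threshold on their values, and all 4 were found. The tissue came from healthy mouse embryos of strain B6NCrl at 15.5 days, with no treatment or genetic change named, in 1 group of 2 biological replicates. Library 1 was made from a pool of 78 embryos and library 2 from a pool of 62, with males and females mixed in both. No other age or treatment is part of the data, so the embryonic level stands alone here. Each pool averages over many embryos, and the spread between individuals cannot be seen.

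MicroRNAs (miRNAs) are short RNAs that guide repression of messenger RNAs, which they recognise mainly through the seed, bases 2 to 8 counted from the 5′ end. The miR-29 miRNAs are known for repressing collagens, elastin and other extracellular matrix genes, the DNA methyltransferases Dnmt3a and Dnmt3b, and, in maturing neurons, cell death genes of the BH3-only class. In the brain they are known to be scarce before birth and to rise strongly as neurons and astrocytes mature.

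A miRNA precursor folds into a hairpin whose 5p and 3p arms can each give a mature miRNA. The 3p arms are shown here because they carry the family's common seed and because their few differing bases decide whether a read can be given to a single gene. Sequences are from RefSeq on GRCm38.p6, the assembly also called mm10, in which all 4 members were matched. They are written 5′ to 3′ with the seed in capitals.
miR-29a-3p, from Mir29a, chr6:31062673-31062694, minus strand: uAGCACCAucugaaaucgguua
miR-29b-3p, from Mir29b-1, chr6:31063025-31063047, minus strand, and from Mir29b-2, chr1:195037091-195037113, plus strand: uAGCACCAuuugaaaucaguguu
miR-29c-3p, from Mir29c, chr1:195037600-195037621, plus strand: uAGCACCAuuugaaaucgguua

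The seed AGCACCA is the same in all of these 3p arms. Among 1738 mature entries of the RefSeq table it occurred 4 times, once in each Mir29 gene and 0 times outside the family. With positions counted from 1 at the 5′ end, miR-29a-3p and miR-29c-3p, each 22 bases long, differed by the single substitution C10U. From miR-29b-3p to miR-29c-3p the substitutions were A18G, G21U and U22A, and miR-29b-3p has 1 base more. The first 17 bases of miR-29b-3p and miR-29c-3p were thus identical. The 3′ end of miR-29b-3p, where these differences lie, is known from human cells as a signal for nuclear import.

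The 5p arms, usually the less abundant strand in this family, each had a seed of their own. They are shown because they are the mature sequences that tell the precursors of miR-29b apart.
miR-29b-1-5p, from Mir29b-1, chr6:31063067-31063088, minus strand: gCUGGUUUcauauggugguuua
miR-29b-2-5p, from Mir29b-2, chr1:195037050-195037074, plus strand: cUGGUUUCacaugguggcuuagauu
Neither occurred exactly in any other of the 1005 precursors of the table, whereas miR-29b-3p occurred exactly in both Mir29b-1 and Mir29b-2. With up to 2 mismatches allowed, miR-29b-1-5p also matched Mir29b-2, and miR-29b-2-5p also matched Mir29b-1. The 5p arms thus tell these precursors apart by exact matches only, and how mismatches were handled in alignment is not given.

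The family lies in 2 clusters. Mir29a (ENSMUSG00000065610.1, chr6:31062660-31062747, minus strand) and Mir29b-1 (chr6:31063023-31063093) are separated by 275 bases. In GENCODE M21, Mir29b-1 overlaps an exon of the long non-coding RNA gene Gm27019 on its own strand, and Mir29a lies 344 bases from that gene and inside no other annotated gene. Mir29b-2 (chr1:195037040-195037120, plus strand) and Mir29c (ENSMUSG00000065548.1, chr1:195037547-195037634) are separated by 426 bases. Both overlap exons of the non-coding transcript A330023F24Rik on their own strand and of the complement regulator gene Cd46 on the opposite strand. The Mir29b-1 and Mir29b-2 models used for counting carry an older version number than those of M21, so their positions are given from RefSeq and M21 and may differ slightly from the counted intervals.

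Each table holds raw read counts, and the counts on the sense strand were scaled to CPM, a gene's counts divided by all sense counts in miRNA genes and multiplied by 1000000. These came to 4228685 in library 1 and 6039889 in library 2. Reads aligned to several places, 29.4% and 29.7% of all reads, were assigned to no gene. CPM was not divided by length, since a read spans a mature miRNA. How efficiently each miRNA was captured was not measured, which limits comparisons of level between genes.

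At 15.5 days nearly all counts assigned to the family fell on Mir29a and Mir29c, at levels near the middle of the genes with enough counts to test. The 4 genes together held 951 counts in library 1 and 1000 in library 2, or 225 CPM (95% Wilson interval 211 to 240) and 166 CPM (156 to 176). The mean was 195 ± 42.0 CPM (SD, n = 2), which is 0.0195% of the counts. Mir29a and Mir29c made up 97.9% of the counts assigned to the family in library 1 and 97.3% in library 2. These shares and sums leave out reads that align to several places, among them full-length reads of miR-29b-3p. Intervals cover counting error only and treat reads as independent molecules, so copies made by PCR would leave them too narrow. In bulk tissue, fewer cells of a type and less of the miRNA per cell cannot be told apart.

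Mir29a was the most abundant member, with 615 counts in library 1 and 551 in library 2. These correspond to 145 CPM (134 to 157) and 91.2 CPM (83.9 to 99.2), with a mean of 118 ± 38.3 CPM (SD, n = 2). Library 1 was higher, and the counting intervals did not overlap. Mir29a ranked 181 in library 1 and 195 in library 2 among all listed genes.

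Mir29c followed with 316 and 422 counts, or 74.7 CPM (66.9 to 83.4) and 69.9 CPM (63.5 to 76.9). Its mean was 72.3 ± 3.44 CPM (SD, n = 2), and the libraries overlapped within counting error. It ranked 218 and 211.

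The Mir29b genes were near the limit of detection. Mir29b-2 had 12 and 15 counts, or 2.84 CPM (1.62 to 4.96) and 2.48 CPM (1.51 to 4.10). Mir29b-1 had 8 and 12 counts, or 1.89 CPM (0.959 to 3.73) and 1.99 CPM (1.14 to 3.47). Both libraries gave the same picture for these genes, with wide intervals that overlapped. A full-length read of miR-29b-3p matches both precursors equally, and reads with several alignments were left out of all genes. The counts of Mir29b-1 and Mir29b-2 therefore do not measure the level of miR-29b-3p.

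**Figure D1:**
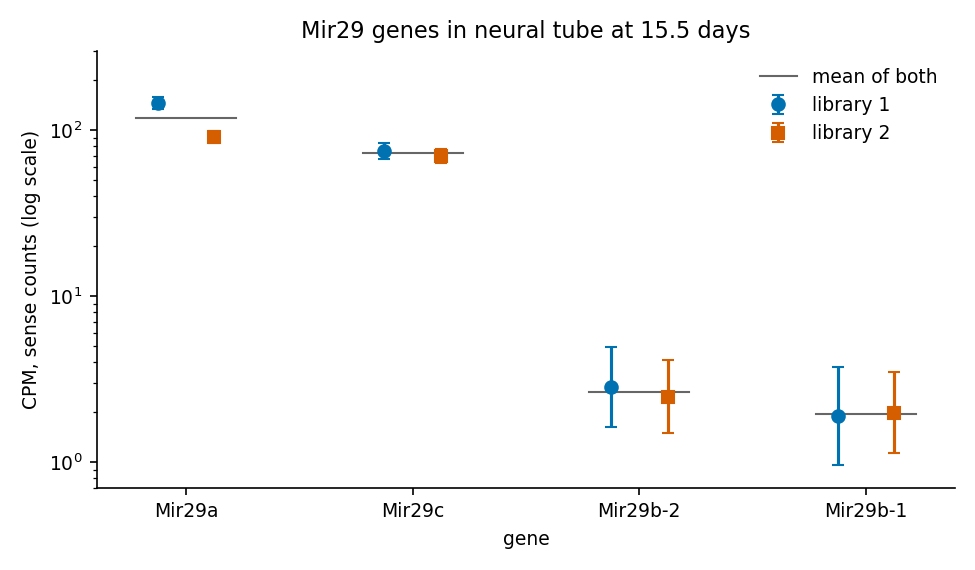
Level of each Mir29 gene in CPM of sense counts, on a log axis, for library 1 (circles) and library 2 (squares), with 95% Wilson counting intervals as bars and the mean of both as a line. Mir29a and Mir29c lie between 69.9 and 145 CPM and the Mir29b genes between 1.89 and 2.84 CPM.

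The order of the levels was Mir29a, Mir29c, Mir29b-2 and Mir29b-1 in both libraries. Mir29a exceeded Mir29c by 46.0 CPM on average, and its lower library lay above the higher library of Mir29c. All members were measured in the same 2 libraries, and an exact paired permutation test over 2 libraries cannot give a two-sided p below 0.5, so these orders are a description. Mir29c stood 27.2-fold above Mir29b-2 by their means. Mir29b-2 and Mir29b-1 did not differ beyond their counting intervals.

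No counts fell on the opposite strand of any member, with 0 antisense counts in both libraries. For Mir29b-2 and Mir29c this also means that no counted read came from the Cd46 strand.

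How far each precursor could be told from the others was measured with windows of 22 bases, about the length of a mature miRNA, searched for exactly in all 1005 precursors of the RefSeq table. In Mir29a, 0 of 67 windows were found in another precursor. Of the 50 windows of Mir29b-1, 5 were shared, all within bases 42 to 69 of the precursor, which hold the 3p arm at bases 47 to 69. Mir29b-2 shared 4 of 60, within bases 50 to 74, and its 3p arm lies at bases 52 to 74. Mir29c shared 1 of 67, with Mir29b-1, and that window began 5 bases before the 3p arm of Mir29c. With 18-base windows the shared number was 0 in Mir29a, 11 in Mir29b-1, 8 in Mir29b-2 and 5 in Mir29c. Matches elsewhere in the genome were not analysed here.

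**Figure D2:**
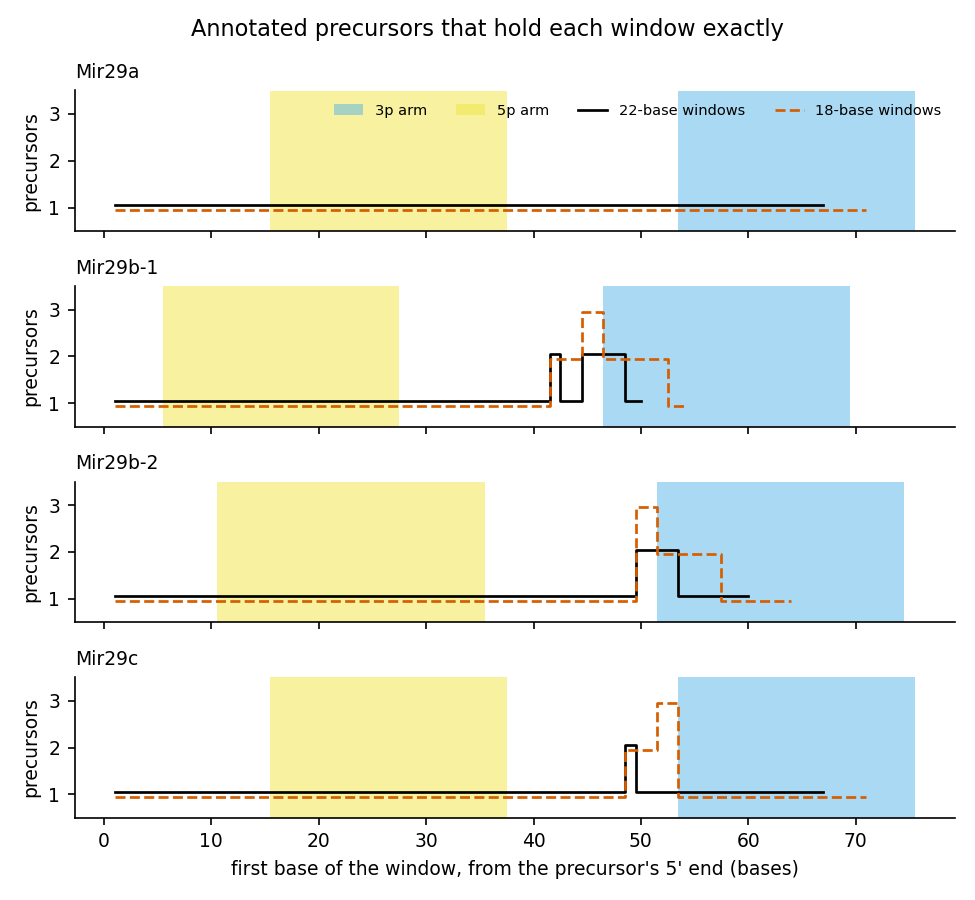
Number of annotated precursors that hold each window exactly, by the window's first base in the precursor, for 22-base windows (black) and 18-base windows (dashed), with the 5p arm shaded yellow and the 3p arm blue. Mir29a stays at 1 throughout, while Mir29b-1 and Mir29b-2 rise to 2 with 22-base windows around the start of the 3p arm.

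Among the 6 pairs of precursors, the pairs most alike lay on different chromosomes. In a global alignment, Mir29a and Mir29c were identical in 78.0% of the aligned columns and Mir29b-1 and Mir29b-2 in 73.2%. The neighbours within a cluster, Mir29a with Mir29b-1 and Mir29b-2 with Mir29c, were identical in 60.4% and 62.8%. The remaining pairs across clusters were the least alike, with 58.7% for Mir29a with Mir29b-2 and 55.9% for Mir29b-1 with Mir29c.

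Among the genes with enough counts to test, Mir29a and Mir29c held middle positions. Over all 1973 listed genes they ranked 187 and 217 by their means. At least 10 sense counts in each library, the condition for a test, were reached by 363 genes and by 3 of the 4 members. Mir29b-1, with 8 counts in library 1, did not reach it. The median of the tested genes was 136 CPM, close to Mir29a, and 1264 listed genes had no count at all. Of the tested genes, 186 had a higher mean than Mir29a, 216 had a higher mean than Mir29c, and 354 had a higher mean than Mir29b-2.

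**Figure D3:**
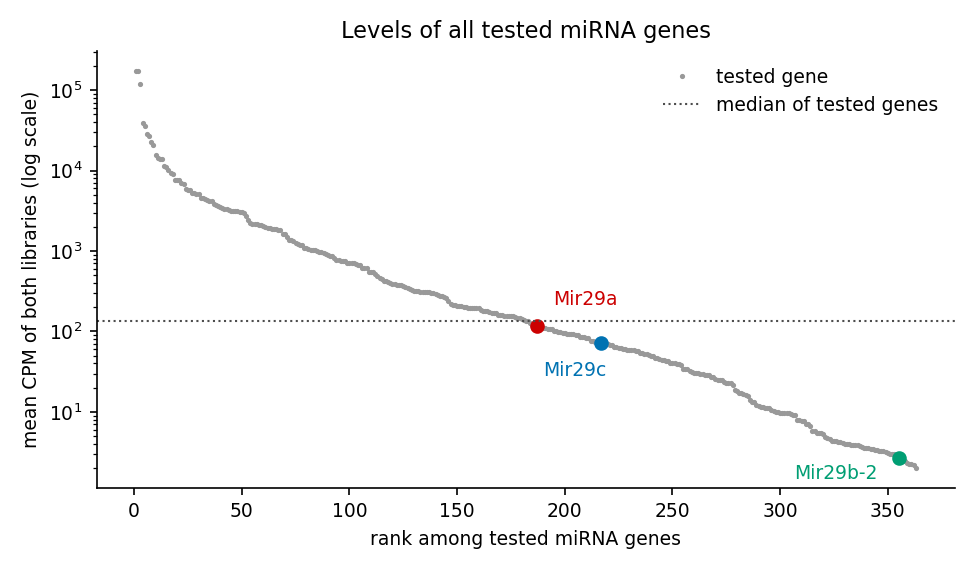
Mean CPM of both libraries on a log axis for the 363 tested miRNA genes in order of level, with the median of 136 CPM as a dotted line. Mir29a sits just under the median, Mir29c below it, and Mir29b-2 near the low end, while Mir29b-1 was not tested and is not drawn.

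The genes nearest to each tested member in level were found by the Euclidean distance in log2(CPM + 1) over both libraries. With 2 libraries of 1 group, this likeness is one of level and of the gap between the pools. For Mir29a they were Mir494, of the imprinted Dlk1-Dio3 region, at a distance of 0.21, Mir199b, known from mesenchyme, at 0.27, and Mir148b at 0.31. Mir494 stood at 127 CPM in library 1 and 96.4 in library 2, so it was higher in library 1 as Mir29a was. For Mir29c they were Mir150, known from lymphocytes, at 0.09, Mir222 at 0.11 and Mir302d, known from embryonic stem cells, at 0.17. Mir29b-2 was nearest to Mir5101, which had the same 12 and 15 counts, and then to Mir3085 and Mir6951.

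Library 1 held more Mir29a than library 2, and the other tested members did not pass the same test. The ratio of library 1 to library 2 was computed with library sizes scaled by TMM (trimmed mean of M values), and each gene was tested with an exact binomial test, two-sided, with Benjamini-Hochberg adjustment over the 363 genes. Such a test sets 1 pool against the other and knows no error beyond counting. Mir29a was 1.56-fold higher in library 1 (95% exact interval 1.39 to 1.75). Its log2 ratio was 0.64, and its adjusted p in the exact binomial test was 2.02e-13. It was the 1 member called of 3 tested. Of all 363 tested genes, 49.9% were called, 25.6% as higher in library 1 and 24.2% as higher in library 2, so the members' share is not above the background.

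Mir29c had a ratio of 1.04 (0.900 to 1.21), with an adjusted p of 0.708 in the exact binomial test. Mir29b-2 had a ratio of 1.12 (0.477 to 2.55) and an adjusted p of 0.920 in the same test. For Mir29b-1, which was not tested, the ratio was 0.930 (0.330 to 2.47). The interval of Mir29c leaves room for a gap of about 1.2-fold, and those of the Mir29b genes for more than 2-fold. Summed over its members, the family stood 1.33-fold above library 2 in library 1 (1.21 to 1.45).

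edgeR's exact test adds the spread between the pools, a coefficient of variation of 34.3% over all tested genes, to the counting error. It called 8 of the 363 genes (2.2%) and 0 Mir29 members, with unadjusted p below 0.05 for 14 genes. Mir29a had p = 0.376 before adjustment and an adjusted p of 1 in edgeR's exact test. That spread was estimated from the same 2 libraries that are compared, so the differences under test set the error, and these p-values do not show whether Mir29a differs beyond the usual spread between pools.

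Among tested genes with a mean within 2-fold of Mir29a, 9 of 82 had a log2 ratio at least as far from 0, and all 9 of these were higher in library 1. The median size of the log2 ratio among these 82 genes was 0.21. For Mir29c, 63 of 74 genes of like level lay at least as far from 0 as it did.

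**Figure D4:**
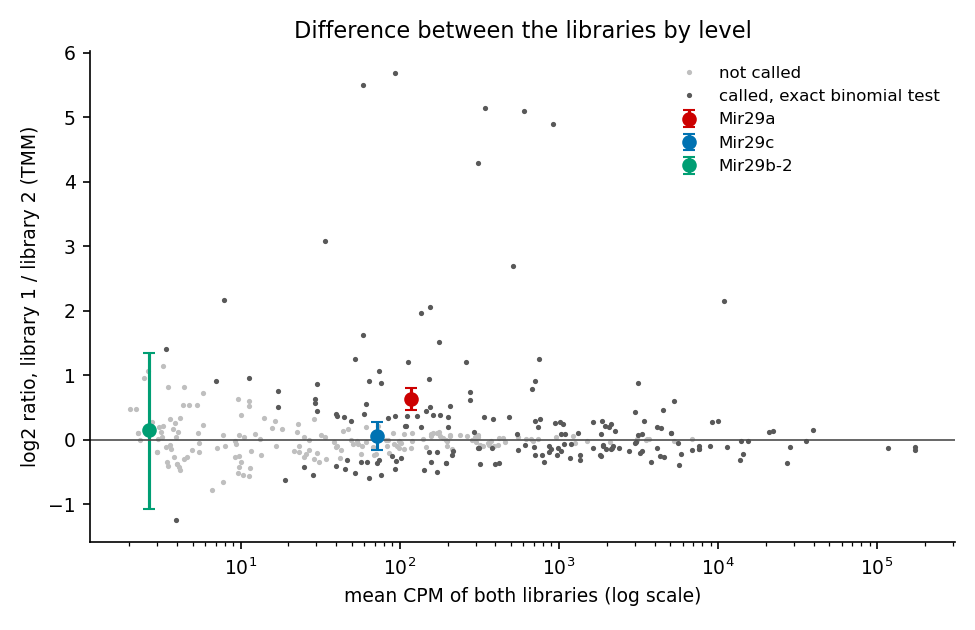
Log2 ratio of library 1 to library 2 after TMM scaling against mean CPM (log axis) for the 363 tested genes, with genes called by the exact binomial test in dark grey and Mir29 members in colour with 95% exact counting intervals. Mir29a lies at 0.64 with an interval above 0, whereas the intervals of Mir29c and Mir29b-2 span 0.

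Within each library, Mir29a and Mir29c can be compared with no scaling between libraries. In library 1 there were 1.95 Mir29a reads per Mir29c read (95% exact interval 1.70 to 2.24), and in library 2 there were 1.31 (1.15 to 1.49). Mir29a thus outnumbered Mir29c in the counts of both pools, by a larger factor in library 1. The mature 3p sequences differ by 1 base, and how mismatches were handled in alignment is not given, so the ratio depends on that setting to an unknown degree. The proportion differed between the libraries by Fisher's exact test, two-sided, with p = 2.78e-05 and an adjusted p of 8.34e-05 over the 3 proportions compared. This test covers counting error only and compares the pools.

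The cluster neighbours were also set against each other. Mir29b-1 made up 1.28% of the summed counts of Mir29b-1 and Mir29a in library 1 (0.556 to 2.51) and 2.13% in library 2 (1.11 to 3.69). Mir29b-2 made up 3.66% of the summed counts of Mir29b-2 and Mir29c in library 1 (1.90 to 6.30) and 3.43% in library 2 (1.93 to 5.60). Neither proportion was shown to differ between the libraries, with adjusted p = 0.404 and 1 by Fisher's exact test. The Mir29b genes were thus counted far less than their neighbours in both clusters, with the limit on miR-29b-3p reads given above.

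Markers of several other cell types were called as higher in library 1, as Mir29a was, most uniformly those of mesenchyme and of epithelium. Over all 363 tested genes, 25.6% were called in that direction. Of 6 mesenchyme and smooth muscle markers, 5 were tested and all 5 were higher in library 1, with summed levels of 19436 CPM in library 1 and 4569 in library 2. All 7 epithelial markers were higher in library 1, with 5458 and 631 CPM. Of 4 leukocyte markers, 3 were tested and 2 were higher in library 1, with 433 and 237 CPM, and Mir142b had no count in either library. The endothelial marker Mir126a had 22011 and 19666 CPM. Of the 3 erythroid markers, 1 was higher in library 1. Their summed levels were 202 and 183 CPM, a ratio of 1.08 with a counting interval that spans 1 (0.986 to 1.18). The part of these cell types in the Mir29a gap was not tested.

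Of the neural markers, 0 were called as higher in library 1. Over all tested genes, 25.6% were called in that direction and 24.2% as higher in library 2. The few neural markers called as higher in library 2 do not stand apart from that share. The 10 neuron markers had 7 tested members, 2 called as higher in library 2 and 5 not called, with summed levels of 10279 and 10910 CPM. The 3 copies of the neuron-defining Mir124a had between 2 and 17 counts each, but they give the same mature miRNA, whose reads can align to several places and are then counted in no gene. The 3 oligodendrocyte markers summed to 2095 and 2328 CPM, with 1 higher in library 2.

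Other miRNA genes known to rise as neurons and glia mature were mostly more abundant than the Mir29 genes at this age. Of 13 such genes, 10 were tested, with 3 called as higher in library 2 and 7 not called. Over all tested genes, 24.2% were called as higher in library 2. The median log2 ratio of these 10 genes was 0.0025 beside -0.0036 over all tested genes. The mean of 8 of the 13 exceeded that of Mir29a, and 7 exceeded the whole Mir29 sum. Mir219a-2, which promotes oligodendrocyte differentiation, reached 1693 CPM in library 1 and 1935 in library 2. Mir128-1, a neuronal miRNA gene, had 1272 and 1278 CPM, and Mir138-1, which acts on dendritic spines, had 987 and 931 CPM. Mir219a-2, Mir128-1 and Mir138-1 each have a mature sequence that also lies in another precursor. Their counts too can leave out reads that align to several places, so they are not full levels of the mature miRNAs. The 3 copies of Mir124a lay at 2.35 CPM or less by their means, and, as for the Mir29b genes, these counts do not measure the level of their common mature miRNA.

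Most genes of progenitors and proliferation were also more abundant. By their means, 8 of the 10 exceeded the Mir29 sum, though Mir25 did so only narrowly, at 198 CPM, and in library 1 stood below it at 199 CPM. All 10 were tested, with 6 called as higher in library 1, 1 as higher in library 2 and 3 not called. Over all tested genes, 25.6% were called as higher in library 1 and 24.2% as higher in library 2. The median log2 ratio of these 10 genes was 0.26 beside -0.0036 over all tested genes. Mir17 reached 10244 CPM in library 1 and 8262 in library 2, Mir93 had 4727 and 4080 CPM, and Mir106b had 3811 and 3035 CPM. Mir19a and Mir19b-1 were the 2 members with a mean below that of Mir29c.

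Families that are expressed in many tissues, as Mir29 is in adults, were also higher. The Mir30 family summed to 28644 CPM in library 1 and 29065 in library 2, 148-fold the Mir29 sum by the means. It was led by Mir30e at 15470 ± 83.0 CPM (SD, n = 2), Mir30a at 7571 ± 376 CPM and Mir30d at 5659 ± 21.1 CPM. The Mir26 family summed to 11115 and 11688 CPM, 58.4-fold the Mir29 sum, nearly all of it from Mir26b. The Mir15 and Mir16 family summed to 3968 and 3457 CPM, 19.0-fold the Mir29 sum, led by Mir15a at 1852 ± 114 CPM, Mir16-1 at 1065 ± 147 CPM and Mir15b at 385 ± 66.6 CPM. Over all tested genes, 25.6% were called as higher in library 1 and 24.2% as higher in library 2. Of 6 tested Mir30 genes, 1 was called as higher in library 1 and 3 as higher in library 2. Of these other families, 1 of 3 Mir26 genes was called as higher in library 2, and 4 of 5 Mir15 and Mir16 genes as higher in library 1. In each case both libraries lay above the Mir29 sum, which with 2 libraries is a description. Sums include copies whose reads can align to several places, as the Mir29 sum does.

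Low counts beside an abundant relative were not limited to the Mir29b genes. Mir26a-1 and Mir26a-2, which like the Mir29b genes share a mature sequence, had means of 4.19 and 14.0 CPM beside 11383 CPM for Mir26b. Mir30c-1 and Mir30c-2 had 39.6 and 32.0 CPM. By contrast, Mir16-1 and Mir16-2 also share a mature sequence but were not low. They had 1065 and 203 CPM, above the median of 136 CPM of the tested genes. The part of reads with several alignments in any of these levels was not tested.

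**Figure D5:**
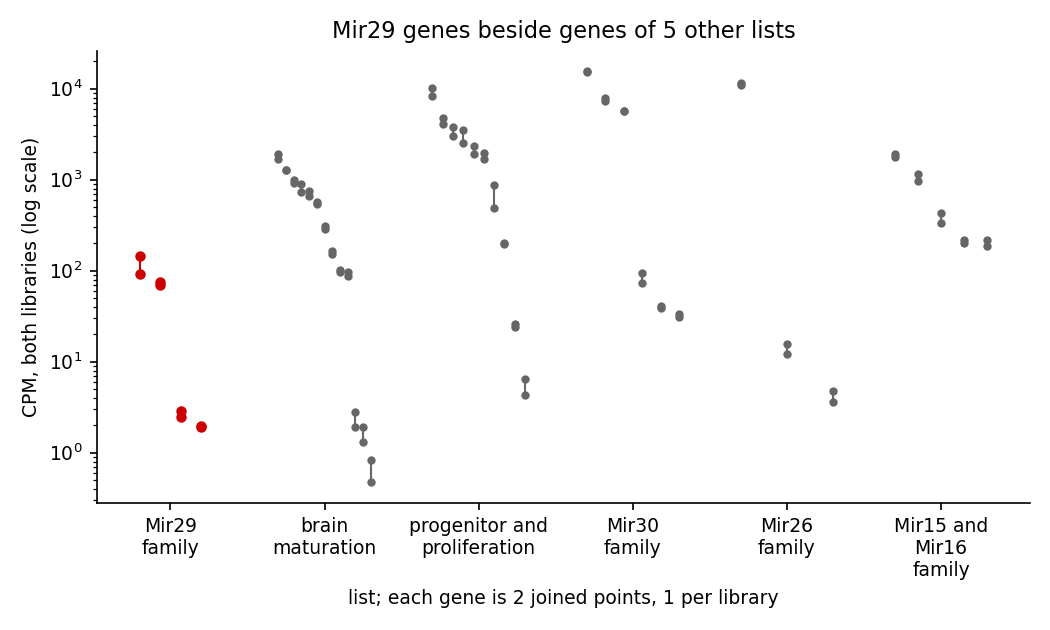
CPM on a log axis of the 4 Mir29 genes (red) and of the genes of 5 other lists (grey), each gene drawn as a pair of joined points for the libraries. Mir29a and Mir29c lie under the leading genes of every other list, and the Mir29b genes lie near the Mir124a copies at the foot of the brain maturation list.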

How the data were processed

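The authors deposited 1 table of raw read counts per library, with counts without regard to strand, on the sense strand and on the opposite strand, and the first equals the sum of the others in every gene. The deposited README files name mm10 as the build and GENCODE M4 as the annotation. The sources used here do not name the aligner, the trimming or the counting settings. Entries naming no gene (45.7% and 47.7% of reads) were left out. Symbols came from GENCODE M21, with 1894 of 1973 identifiers matched without version. CPM used sense totals. TMM factors and the exact test with a common dispersion were from edgeR 4.0.16, size factors from DESeq2 1.42.0 (R 4.3.3), and binomial, Fisher and paired permutation tests from scipy 1.17.1. Genes with at least 10 counts in each library were tested, with adjusted p below 0.05 called. The exact binomial test was checked on simulated counts with counting error only, so that check does not cover spread between pools. edgeR's estimate of the spread was checked on simulated counts with added spread. The Fisher and permutation tests were not checked in this way. Likeness used a pseudocount of 1. Named genes were the 4 members, the 3 nearest genes to each tested member and the 3 highest genes of each list, with further ones named after their values were seen. The family was proposed, and the lists drawn up, with earlier results of these data known. Mir497, Mir142, Mir486a and Mir486b were listed under these symbols and were not analysed here.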

Additional observations from a re-analysis of the deposited data

How the results depend on the processing

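Results were recomputed with library sizes alone, DESeq2 size factors, no filter, at least 100 counts in each library, counts from both strands, edgeR's exact test and without either library. With edgeR's exact test the number of genes called fell from 181 to 8, and Mir29a, with the same log2 ratio of 0.64, was no longer called (adjusted p = 1). The spread in that test comes from the same libraries, so it is a weak check of either call. With all reads of the library as the denominator in place of reads in genes, the family level was 103 CPM, since that denominator is larger. The remaining 38 values covered the family, the counts of calls, the log2 ratios and the proportions. The counts of calls ranged from 163 to 188, beside 181. The log2 ratios of the members kept their direction and side of the threshold, and that of the family stayed within its counting interval. The family level and the proportions stayed within the spread between libraries. For the family level and the proportions, a value from either library alone always lies within that spread. Leaving out a library could therefore give no other outcome. Counts from both strands could not change the proportions either, since no member had antisense counts. The log2 ratio ranged from 0.61 to 0.67 for Mir29a and from 0.03 to 0.10 for Mir29c. Without either library in turn the family level was 166 and 225 CPM, and the ratio of Mir29a to Mir29c was 1.31 and 1.95. Mir29b-2 has too few counts for the filter at 100. Depth limits the Mir29b genes, where 8 to 15 counts leave intervals wider than 2-fold. No pairing of samples across conditions was possible because the samples form a single group.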

Other observations

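Mir29b-1 and Mir29b-2 share a mature sequence with each other. Of 916 listed genes with mature entries in RefSeq, 84 had a mature sequence found exactly in another precursor, and 44 of them (52.4%) had at least 10 counts in each library, with 24 above 100 CPM by their mean. Of the other 832 genes, 286 (34.4%) had at least 10 counts in each library, with 156 above 100 CPM by their mean. The median level of the genes with at least 10 counts in each library was 137 CPM with a shared mature sequence and 142 CPM without. Mir29b-2, at 2.66 CPM, reached these counts, and Mir29b-1, at 1.94 CPM, did not. How many reads each gene lost through several alignments was not measured.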
